A study of Mus musculus with 6 samples.

Results

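Gas6 and the TAM receptors are 4 genes, Gas6, Axl, Mertk and Tyro3, of 21959 rows in an RNA-seq table of mouse white adipose tissue. They were taken by name. Gas6 was chosen by its difference between the genotypes in these same counts, and the receptors came with it as its partners. Its values and those of its receptors are therefore given as a description, with no p-value. The tissue came from mice labelled WT (3 libraries, replicates 10, 11 and 12) and from mice labelled ++Oxtr (3 libraries, replicates 7, 8 and 9), and the series text places it in the gonadal depot. The labels give no strain, age, sex, promoter or construct for ++Oxtr, and the table headers mark these libraries only as tg. Nothing says that the libraries came from separate animals, so the spread between them may be technical.

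TAM stands for Tyro3, Axl and Mertk, 3 receptor tyrosine kinases that share a pair of immunoglobulin-like and a pair of fibronectin-like domains outside the cell. Their ligands Gas6 and protein S carry a Gla domain whose glutamates are carboxylated with the help of vitamin K, and this domain binds phosphatidylserine on dying cells. Gas6 can activate all of the receptors, while protein S acts on Tyro3 and Mertk. On macrophages the receptors drive the uptake of dying cells and dampen inflammatory signalling. In fat, Gas6 is made by adipocytes and by stromal and vascular cells.

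Library depth ran from 14314517 to 19186696 counts. Levels of 1 gene across libraries are given as CPM, read counts scaled to library size with edgeR's TMM factors. Levels of different genes are compared as FPKM, which also divides by gene length. Oxtr, the receptor named in the label, ran from 22 to 61.4 CPM in WT and from 81.8 to 90.7 CPM in ++Oxtr. The adipocyte gene Adipoq was at 2282 CPM or more in every library. Library ++Oxtr replicate 8 stood apart in markers of multiciliated epithelium, 10 listed genes with a summed level of 111.9 CPM there and of 7.55 to 30.9 CPM in the other 5 libraries.

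In the GRCm38 annotation Gas6 lies on chromosome 8 (13465374 to 13494490, minus strand, 15 merged exons). Axl lies on chromosome 7 (25757273 to 25788705, minus strand, 19 merged exons), and Mertk (128698956 to 128802894, plus strand, 19 merged exons) and Tyro3 (119797733 to 119818104, plus strand, 21 merged exons) both lie on chromosome 2. All 4 are protein coding. The lengths of 2548, 5033, 4336 and 6198 bases that the authors used for Gas6, Axl, Mertk and Tyro3 equal the merged exon lengths of this annotation. Whether counting used strand is not given in the sources used here. Gas6 shares 34 exon bases with Tmem255b on the opposite strand, which had 46 to 92 reads per library, against 3399 to 6749 for Gas6. The log2 fold change of Tmem255b, ++Oxtr over WT, was -0.61 (SE 0.27), and its groups overlapped in CPM. Whether reads of the shared bases enter either count was not tested. No exon of another annotated gene overlaps those of Axl, Mertk or Tyro3.

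The 250 bases before the RefSeq start of the ligand gene and of its 2 abundant receptor genes are shown because these genes did not move together, so a reader can set their start regions side by side. They are read 5′ to 3′ on the gene's strand (GRCm38.p6, RefSeq), and capitals mark the GC box, GGGCGG on either strand. The windows are chr8:13494536-13494785 for Gas6, chr7:25788734-25788983 for Axl and chr2:128698665-128698914 for Mertk.
Gas6: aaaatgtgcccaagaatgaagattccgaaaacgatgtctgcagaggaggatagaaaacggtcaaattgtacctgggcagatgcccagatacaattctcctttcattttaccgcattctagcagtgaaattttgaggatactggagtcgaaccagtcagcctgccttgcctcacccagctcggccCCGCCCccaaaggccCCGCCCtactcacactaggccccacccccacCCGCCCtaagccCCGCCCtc
Axl: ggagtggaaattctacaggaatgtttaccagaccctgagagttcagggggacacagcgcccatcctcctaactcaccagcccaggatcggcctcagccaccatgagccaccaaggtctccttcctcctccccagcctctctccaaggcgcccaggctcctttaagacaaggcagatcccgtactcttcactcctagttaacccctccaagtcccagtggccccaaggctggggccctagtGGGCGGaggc
Mertk: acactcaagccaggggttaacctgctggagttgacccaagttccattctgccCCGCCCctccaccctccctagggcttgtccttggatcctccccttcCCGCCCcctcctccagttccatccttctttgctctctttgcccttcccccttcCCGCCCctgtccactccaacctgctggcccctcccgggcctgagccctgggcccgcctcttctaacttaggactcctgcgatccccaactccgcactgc
The Gas6 window held 4 GC boxes, all within 66 bases of the start, where Axl had 1 and Mertk 3. A GC box was found in 32.7% of 32851 windows of this length in the RefSeq table. No window of the 3 held a TATA box (TATAAA, in 12.4% of windows) or the E box CACGTG (in 6.02%), on either strand. These matches describe the letters only.

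Gas6 was lower in all ++Oxtr libraries. The WT libraries, replicates 10, 11 and 12, held 398.0, 372.5 and 387.8 CPM, and the ++Oxtr libraries, replicates 7, 8 and 9, held 254.5, 248.9 and 229.4 CPM. The same order of libraries is kept below. The groups did not overlap, and the gap between them was far wider than the spread within either. The WT mean was 386.1 ± 12.8 CPM and the ++Oxtr mean 244.3 ± 13.2 CPM (SD, n = 3 each). The fitted log2 fold change was -0.66 (SE 0.09), which is 1.58-fold lower. Of 13566 tested genes, 7.61% lay lower in ++Oxtr with no overlap between the groups, and Gas6 was taken up for that difference, so nothing further is read from it. Leaving out any 1 library gave -0.69 to -0.62, and without ++Oxtr replicate 8 it was -0.67.

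Axl, the receptor most closely tied to Gas6, was at the same mean level in both genotypes. The WT libraries held 171.9, 127.7 and 175.2 CPM of it, and the ++Oxtr libraries 159.9, 157.9 and 157.2 CPM. The ++Oxtr libraries were nearly equal to each other and lay inside the WT range, whose width came from WT replicate 11. The means were 158.3 ± 26.5 CPM and 158.3 ± 1.38 CPM (SD, n = 3 each), a log2 fold change of 0.00 (SE 0.13). Without WT replicate 11 it was -0.13 (SE 0.08). Leaving out WT replicate 10 gave 0.06, and leaving out WT replicate 12 gave 0.09. The sign of this difference thus rests on single WT libraries. With all libraries it was 0.03 with upper quartile factors and -0.03 by limma on log2(FPKM + 0.5), where scale and test both differ.

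Mertk, the receptor used by macrophages to engulf dying cells, split the ++Oxtr libraries. The WT libraries held 91.9, 85.9 and 85.5 CPM. In ++Oxtr replicates 7 and 8 it was at 53.5 and 51.2 CPM, while ++Oxtr replicate 9, at 90.2 CPM, lay inside the WT range. The groups therefore overlapped through 1 library. The means were 87.8 ± 3.57 CPM for WT and 65.0 ± 21.9 CPM for ++Oxtr (SD, n = 3 each), with a log2 fold change of -0.44 (SE 0.22). It was -0.75 (SE 0.09) without ++Oxtr replicate 9, -0.29 (SE 0.21) without ++Oxtr replicate 8 and -0.31 (SE 0.23) without ++Oxtr replicate 7.

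Tyro3, the receptor best known from neurons, was low in this fat but had reads in every library. The WT libraries had 27, 35 and 31 reads and the ++Oxtr libraries 35, 23 and 36 reads. The groups overlapped, at 1.59 to 2.43 CPM in WT and 1.52 to 2.43 CPM in ++Oxtr. Fitted, this gave -0.06 on the log2 scale (SE 0.36), and leaving out 1 library moved it from -0.25 to 0.10. With that error, a difference as large as that of Gas6 could hardly be told from the spread at this depth.

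**Figure D1:**
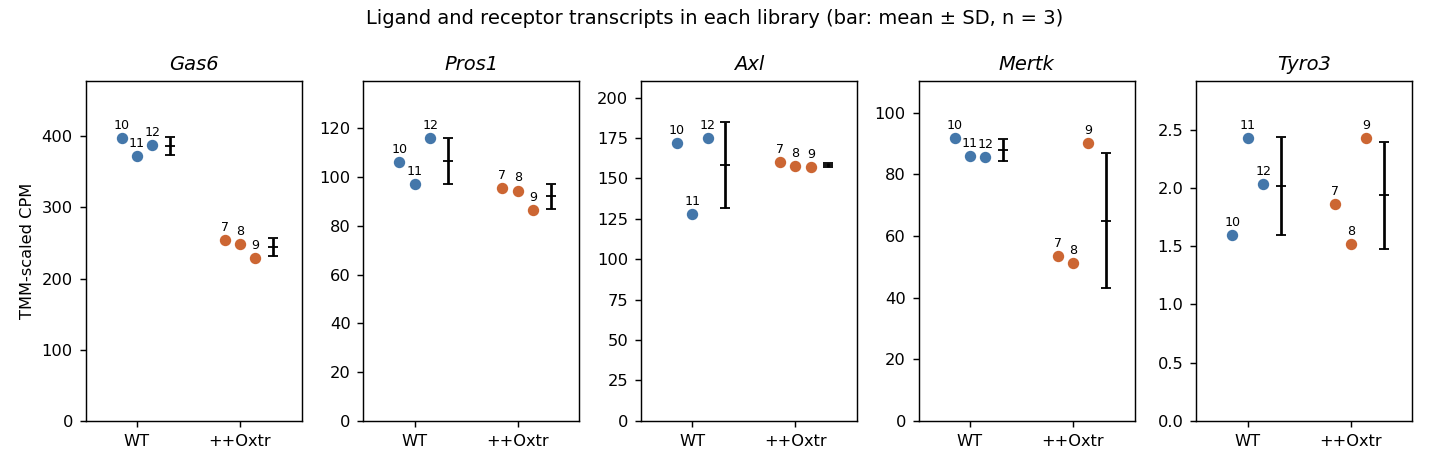
TMM-scaled CPM (vertical axes, from 0) of Gas6, Pros1, Axl, Mertk and Tyro3 in each WT (blue) and ++Oxtr (orange) library, numbered by replicate, with mean ± SD over 3 libraries. Gas6 is at 229.4 to 254.5 CPM in ++Oxtr and 372.5 to 398.0 CPM in WT, the Axl groups overlap, and Mertk in ++Oxtr replicate 9 sits with WT.

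Of the other ligands, Pros1, which encodes protein S, stood at 106.3, 97.2 and 116.2 CPM in the WT libraries and at 95.5, 94.5 and 86.3 CPM in the ++Oxtr libraries. The groups did not overlap, although the lowest WT and the highest ++Oxtr library lay close together. It had a log2 fold change of -0.21 (SE 0.09), and of -0.14 without WT replicate 12. EdgeR's adjusted p over all genes was 0.567. Lgals3, galectin 3, a lectin that has been described as a Mertk ligand, had a log2 fold change of 0.25 (SE 0.24) and an edgeR adjusted p of 0.799. Lgals3 was at 0.05 without ++Oxtr replicate 8 and at 0.52 without WT replicate 11. Tub, described as a bridging ligand of Mertk, was at 0.35 to 2.16 CPM. Tulp1, its relative, had 1 to 6 reads per library and was not tested. Gas6 had a larger fitted difference than Pros1 or Lgals3, but it was chosen by that difference, so nothing is read from this order. The differences between their fold changes were not tested.

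**Figure D2:**
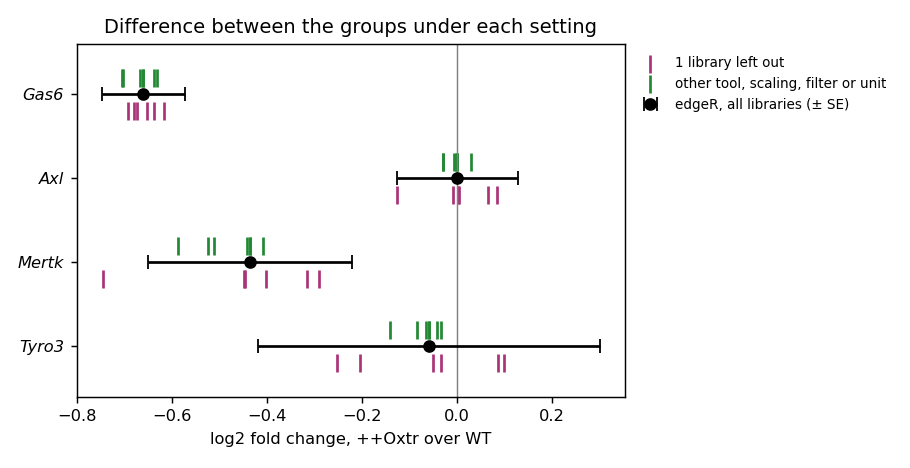
Log2 fold change of ++Oxtr over WT (horizontal axis) for Gas6, Axl, Mertk and Tyro3, as the edgeR estimate with its standard error (black) and under each alternative (ticks). The Gas6 values lie between -0.70 and -0.62, those of Axl on both sides of 0, and those of Mertk between -0.75 and -0.29.

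On the FPKM scale Gas6 was the most abundant among the members and Pros1 in every library. It was at 147.2 to 157.8 FPKM in WT and 88.4 to 98.0 FPKM in ++Oxtr. Axl followed at 25.6 to 36.1 FPKM in WT and 30.7 to 31.2 FPKM in ++Oxtr. Pros1 ran from 23.96 to 29.5 FPKM and from 20.7 to 22.9 FPKM, and Mertk from 19.9 to 21.2 FPKM and from 11.7 to 20.4 FPKM. In WT the ranges of Axl and Pros1 overlapped across libraries, while Axl was above Pros1 within each of the 6 libraries. Tyro3 was last, at 0.26 to 0.39 FPKM in WT and 0.24 to 0.38 FPKM in ++Oxtr.

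Axl made up most of the receptor transcripts. Of the summed receptor FPKM it held 61.4%, 55.7% and 63.4% in the WT libraries and 71.5%, 72.3% and 59.6% in the ++Oxtr libraries. The share was higher in the same ++Oxtr libraries in which Mertk was low, which follows from the shared sum, since Axl was nearly level there. Mertk held nearly all of the rest, and Tyro3 at most 0.86%.

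There was less Gas6 transcript per receptor transcript in ++Oxtr. Gas6 FPKM over summed receptor FPKM was 2.81, 3.21 and 2.77 in the WT libraries and 2.25, 2.25 and 1.72 in the ++Oxtr libraries. The groups did not overlap, and the lowest value was in the library with WT-like Mertk. Gas6 over Pros1 was 5.84 ± 0.42 in WT and 4.25 ± 0.03 in ++Oxtr (SD, n = 3 each). These ratios carry over the Gas6 difference itself and are given as a description.

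**Figure D3:**
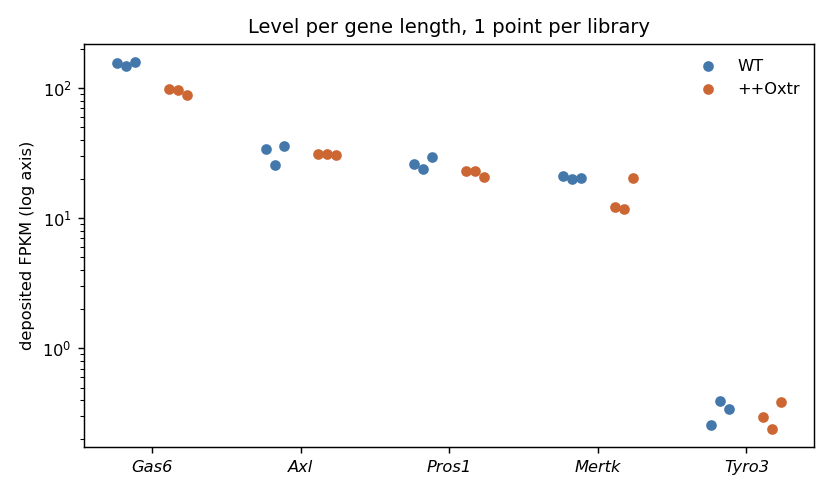
Deposited FPKM (logarithmic vertical axis) of the ligand genes Gas6 and Pros1 and the receptor genes Axl, Mertk and Tyro3, with 1 point per WT (blue) or ++Oxtr (orange) library. Gas6 lies above all others in each library and Tyro3, at 0.24 to 0.39 FPKM, below all others.

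Mertk and Gas6 are also read against markers of cells that can make them. The tissue is bulk, so fewer cells of a type and less RNA per cell cannot be told apart. Of 20 macrophage markers, all tested, 18 were on the lower side in ++Oxtr. Their median log2 fold change was -0.46 against 0.00 over all tested genes. By edgeR 0 of them passed an adjusted p of 0.05, as did 0.0% of all 13566 genes. At an unadjusted p under 0.05 10 of them were lower, 50% of the list, where 4.47% of all genes were. The list was chosen with earlier results of these data known. Its markers share 1 cell type and are not separate observations. Cd163, a scavenger receptor of resident macrophages, averaged 101.0 ± 22.7 CPM for WT and 54.4 ± 10.4 CPM for ++Oxtr (SD, n = 3 each), Folr2 had a log2 fold change of -0.92 (SE 0.20), and Adgre1, the F4/80 antigen, one of -0.49 (SE 0.24), which was -0.31 without WT replicate 10. Without WT replicate 12 the count at an unadjusted p under 0.05 was 6 and the median -0.32. DESeq2 called 4 of the 20 lower at its adjusted threshold, Cd163, Folr2, Lyve1 and C1qa, where it called 0.708% of all genes lower. All 4 are named after their values were seen. Cd163 and Folr2 had the smallest unadjusted edgeR p of this list, and C1qa is named for its small p in the clearance list. No macrophage marker was at 0 reads in all libraries.

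The summed macrophage level was 1794 to 2255 CPM in WT and 1391 to 1650 CPM in ++Oxtr. Within ++Oxtr, Mertk and this sum had the same order of libraries but not the same proportion. As a percent of the summed macrophage CPM it was 3.33 and 3.68 in ++Oxtr replicates 7 and 8 and 5.46 in ++Oxtr replicate 9, against 3.79 to 4.79 in WT. Replicate 9 was thus above and the other 2 below every WT library. It was also the library with the highest sums for 6 other cell type lists. The T and natural killer cell sum was 53.6 CPM there against 11.7 to 24.4 CPM in the other 5 libraries, the B cell sum 13.8 against 4.28 to 10.7 CPM, and the neutrophil sum 65.8 against 30.4 to 61.0 CPM. The dendritic cell sum was 65.9 against 50.4 to 62.0 CPM, that of smooth muscle and pericytes 1394 against 988.1 to 1325 CPM, and the stromal sum 6987 against 5237 to 6606 CPM. The part of any of these cells in the Mertk values was not tested.

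**Figure D4:**
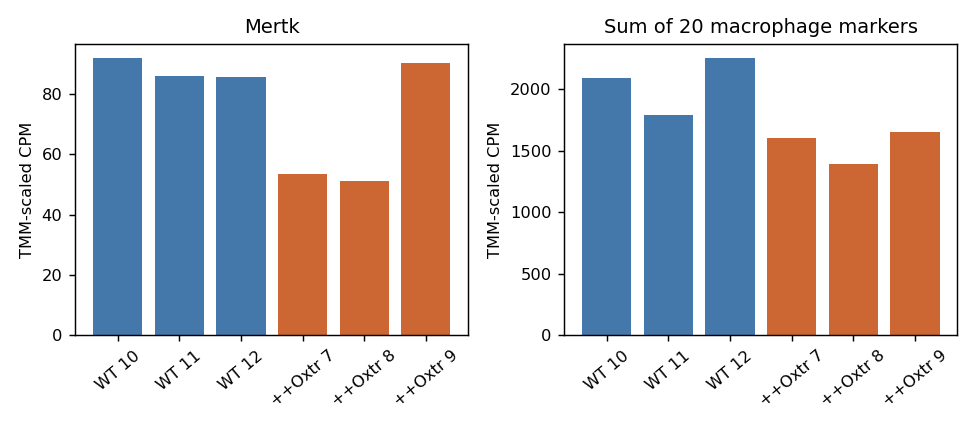
TMM-scaled CPM of Mertk (left) and of 20 macrophage markers summed (right) in each WT (blue) and ++Oxtr (orange) library, both axes from 0. The summed markers are lower in each ++Oxtr library than in each WT library, while Mertk in ++Oxtr replicate 9 (90.2 CPM) is as high as in WT.

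Stromal, mesothelial and adipocyte cells are taken here as other possible sources of Gas6. Vascular cells were also named above. Their endothelial list and their smooth muscle and pericyte list had median log2 fold changes of -0.09 and 0.04 and are given under the other observations. The median log2 fold change was -0.04 for 14 stromal progenitor and fibroblast markers, -0.13 for 10 mesothelial markers and 0.01 for 12 adipocyte markers, with 0 genes past an edgeR adjusted p of 0.05 in each. At an unadjusted p under 0.05, 1 stromal gene was higher and 2 lower (21.4% of the list), 1 mesothelial gene was lower (10%) and 2 adipocyte genes were lower (16.7%), where 8.91% of all genes reached that level. DESeq2 called Scara5 of the first and Plin4 of the last lower at its adjusted threshold, as it did 0.708% of all genes. Both are named after their values were seen. Scara5, Fbn1, Bnc1 and Krt8 are named for the smallest unadjusted edgeR p of their lists. The summed stromal and mesothelial levels overlapped between the groups. The stromal sum ran from 6439 to 6606 CPM in WT and from 5237 to 6987 CPM in ++Oxtr. The mesothelial sum ran from 255.5 to 450.8 CPM in WT and from 321.6 to 380.8 CPM in ++Oxtr. Within the stromal list Pdgfra, the general progenitor marker, had a log2 fold change of 0.18 (SE 0.12), while Scara5, a ferritin receptor of a progenitor subset, had one of -0.81 (SE 0.10) and Fbn1, fibrillin 1, one of -0.40 (SE 0.14). Leaving out 1 library gave 0.09 to 0.30 for Pdgfra and -0.49 to -0.26 for Fbn1. Of the mesothelial genes, Msln stood at -0.14 (SE 0.33), Bnc1 at -0.57 (SE 0.20) and the keratin gene Krt8 at 1.10 (SE 0.67). Krt8 was at 0.35 without ++Oxtr replicate 8, Msln at 0.20 without WT replicate 10 and at -0.41 without WT replicate 11, and Bnc1 at -0.37 without WT replicate 10. The part of any of these cells in the Gas6 values was not tested.

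Around the ligand and receptors, 95 other genes of the pathway were tested, of 107 listed. By edgeR 0 of them passed an adjusted p of 0.05. At an unadjusted p under 0.05, 1 was higher and 13 were lower, 14.7% of those tested. Of all genes, 8.91% reached that level, 4.44% higher and 4.47% lower. Their median log2 fold change was -0.06. DESeq2, the alternative test, called 3 of them lower at its adjusted threshold, Apoe, C1qa and Prrg3, and 0 higher. Over all genes it called 0.708% lower and 0.693% higher. These 3 are named after their values were seen. From each list below, the first gene and the 2 with the smallest unadjusted edgeR p are named, so the latter are picked extremes. Apoe, the lipoprotein of lipid efflux, had a DESeq2 log2 fold change of -0.30. The 13 lower genes at the unadjusted level became 8 without WT replicate 12 or without ++Oxtr replicate 8, and the 1 higher gene became 4 without ++Oxtr replicate 7.

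Carboxylation of Gas6 and protein S needs Ggcx, the gamma-glutamyl carboxylase, and enzymes that recycle vitamin K. Of 6 tested genes of this step 1 had a positive log2 fold change. The median was -0.05, and leaving out 1 library gave -0.088 to -0.00054. Ggcx was that gene, with means of 32.5 ± 2.71 CPM for WT and 37.2 ± 1.21 CPM for ++Oxtr (SD, n = 3 each), a log2 fold change of 0.19 (SE 0.10, edgeR adjusted p = 0.605). Aifm2, which reduces vitamin K, had one of -0.20 (SE 0.13), which was -0.08 without ++Oxtr replicate 9 and -0.32 without ++Oxtr replicate 7. Vkorc1 had at most 0.48 CPM in any library and was not tested. It shares 401 of its 840 exon bases with Gm21974 on the same strand, and Gm21974 held 0 reads. Whether this overlap affects the Vkorc1 count was not tested, so the level of Vkorc1 is not read here.

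Gas6 is 1 of several Gla proteins. Of 13 other such genes listed 7 were tested, and 4 of these had a positive log2 fold change. Their median was 0.09, and leaving out 1 library gave 0.062 to 0.15. Prrg3, a membrane Gla protein on the X chromosome, stood at 94.6, 109.9 and 102.1 CPM in the WT libraries and at 70.6, 56.5 and 36.0 CPM in the ++Oxtr libraries. The groups did not overlap, and the fit gave -0.91 on the log2 scale (SE 0.23). The adjusted p was 0.370 with edgeR and 0.0106 with DESeq2, and over all 13 alternatives it ran from 0.0106 to 0.760. Mgp, the matrix Gla protein, was at 0.59 (SE 0.36), with its highest level, 145.7 CPM, in ++Oxtr replicate 9, and at 0.09 without that library. Prrg4 had a log2 fold change of 1.85 (SE 1.0) at no more than 2.37 CPM in any library, and leaving out 1 library gave 1.04 to 3.22.

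TAM receptors are cut from the cell surface by metalloproteases, and the shed part can bind Gas6. Of 10 tested genes of shedding 9 had a negative log2 fold change. The median was -0.15, and 2 of the 10 (20%) were lower at an unadjusted p under 0.05, where 4.47% of all genes were. The log2 fold change was -0.19 (SE 0.08) for Adam17, the protease that cuts Mertk, -0.30 (SE 0.11) for Rhbdf1, which carries Adam17 to the surface, and -0.22 (SE 0.09) for Psen2 of the gamma-secretase complex. The edgeR adjusted p was at least 0.491 for all of the list. Without WT replicate 10 the median was -0.06.

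Of 26 tested genes that act inside the cell after receptor activation, 7 were on the higher and 19 on the lower side. Over all tested genes 6895 were on the higher and 6671 on the lower side. The median of the list was -0.06, against 0.00 over all tested genes. At an unadjusted edgeR p under 0.05, 1 of the 26 was higher and 2 were lower (11.5%), where 8.91% of all genes reached that level. Grb2, an adaptor, had a log2 fold change of -0.09 (SE 0.08), Shc1, another adaptor, one of -0.23 (SE 0.08), and Nck2, which links receptors to actin, one of 0.43 (SE 0.11). Grb2 was at -0.05 without ++Oxtr replicate 7. The edgeR adjusted p of these 3 was 0.766, 0.459 and 0.373.

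Among 31 tested genes of phosphatidylserine exposure and clearance, the process that TAM ligands serve, 11 were on the higher and 20 on the lower side. The median was -0.05, and leaving out 1 library gave values from -0.10 (without WT replicate 11) to 0.0095 (without WT replicate 12). Mfge8, a bridging protein that works with integrins in place of TAM receptors, had a log2 fold change of -0.04 (SE 0.16), and of -0.16 to 0.07 with 1 library left out. C1qa, a complement subunit made by macrophages, averaged 197.5 ± 18.8 CPM for WT and 145.4 ± 9.27 CPM for ++Oxtr (SD, n = 3 each), and Stab1, a scavenger receptor for phosphatidylserine, had a log2 fold change of -0.27 (SE 0.08). By edgeR their adjusted p was 0.347 and 0.451. Lower at an unadjusted edgeR p under 0.05 were 5 of the 31 genes (16.1%), against 4.47% of all genes. C1qa, C1qb, C1qc and Timd4 of this list are also macrophage markers, whose list was lower as given above.

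Nuclear receptors that control Mertk in macrophages, and their lipid-efflux targets, had a median of -0.02 over 12 tested genes, 8 of them on the lower side. Nr1h3, the liver X receptor alpha gene, had a log2 fold change of -0.02 (SE 0.10), from -0.12 to 0.03 with 1 library left out, and Rxra, its partner, one of -0.29 (SE 0.09). Abcg1, a sterol exporter and liver X receptor target, was at -0.66 (SE 0.22). The edgeR adjusted p was 0.973, 0.412 and 0.462. Lower at an unadjusted edgeR p under 0.05 were 3 of the 12 genes (25%), against 4.47% of all genes. The median was -0.17 without ++Oxtr replicate 9, -0.10 without WT replicate 10 and -0.11 by limma-voom with quality weights, and it was above 0 without ++Oxtr replicate 7 (0.011) and with upper quartile factors (0.0081).

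**Figure D5:**
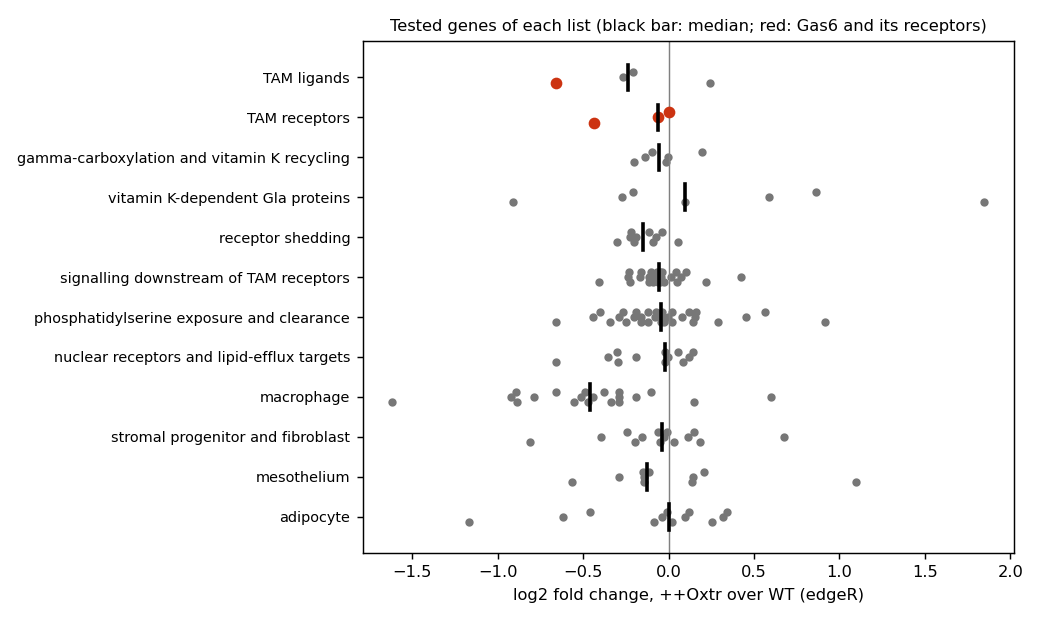
Log2 fold change of ++Oxtr over WT (horizontal axis, edgeR) for each tested gene of the 8 pathway lists and of 4 cell type lists, with the list's median as a black bar and Gas6, Axl, Mertk and Tyro3 in red. The macrophage median is at -0.46, and the medians of the lists of carboxylation, signalling and clearance lie between -0.06 and -0.05.

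The genes whose levels followed each member most closely were found by the root-mean-square difference in log2 CPM over the 6 libraries, each gene centred on its own mean, among 10901 genes with a mean of at least 5 CPM. Nearest to Gas6 were Stim1, a calcium sensor (0.04), Hacd2, an enzyme of very long chain fatty acid elongation (0.05), Kif5a, a kinesin (0.05), Hmox1, heme oxygenase 1 (0.08), and Dctn3, a dynactin subunit (0.08). The median distance from Gas6 was 0.36. The distance from Gas6 was 0.36 for Axl, 0.32 for Mertk, 0.43 for Tyro3 and 0.24 for Pros1. It spans both genotypes, so it largely restates the difference by which Gas6 was chosen, and the 5 nearest genes had log2 fold changes of -0.67 to -0.56.

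Nearest to Mertk were Gmfg, an actin regulator of blood cells (0.09), Mcf2l (0.10), and Slamf9, a receptor of myeloid cells (0.10), against a median of 0.39. These genes were picked for their likeness to Mertk over the same 6 libraries. Their higher level in ++Oxtr replicate 9 than in ++Oxtr replicates 7 and 8 follows from that choice. Mcf2l was at 186.4 CPM in replicate 9 and at 109.0 and 94.1 CPM in replicates 7 and 8. Nearest to Axl were Hyi (0.04), Dimt1 (0.04) and Snx21 (0.05), with a median distance of 0.22. Nearest to Tyro3 were Daam2 (0.08), Il18bp (0.09) and Tpm2 (0.09), with a median of 0.31.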

How the data were processed

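Total RNA of mouse white adipose tissue was taken up in Trizol and sequenced as 6 NEBNext Ultra II libraries, per the labels' protocols. The deposited table gives, per the file headers, raw read counts and FPKM for each gene in each library. The authors' FPKM divide the count by gene length and by the library's summed count, with no further scaling. The submitters' processing notes name mm10. The aligner, the counter and whether strand was used: not given in the sources used here. The coordinates in the table differ from GENCODE on GRCm38 (514 of 21851 matched rows have the same start and end, and 21394 the same span), so positions here are those of GENCODE. Libraries were matched to columns by the number in the title.

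The groups were compared with edgeR 4.0.16 (quasi-likelihood F-test, TMM, robust, filterByExpr, Benjamini-Hochberg over 13566 genes, threshold 0.05) in R 4.3.3, with steps tested on simulated data. Standard errors come from the fit. DESeq2 1.42.0, limma 3.58.1, other scalings, no filter, log2 of FPKM plus 0.5 or 0.1 and leaving out each library were the alternatives. A count of 0 allows up to 3 counts. Members and all lists were chosen with earlier results of these data known. Named genes were the members, all TAM ligands, the first gene and the 2 with the smallest p of each other pathway list and of the macrophage, stromal and mesothelial lists, the first gene of other cell type lists, and the nearest 5 (Gas6) or 3 genes by profile.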

Additional observations from a re-analysis of the deposited data

How the results depend on the processing

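The limits are 3 libraries a group, 1 contrast and bulk tissue. No paired analysis was possible because no replicate number occurs in both groups. Gas6 and Mertk stayed below 0 in all 13 alternatives, at -0.70 to -0.62 and -0.75 to -0.29, while Axl ran from -0.13 to 0.09 and Tyro3 from -0.25 to 0.10. EdgeR's 0 genes past an adjusted p of 0.05 compare with 603 higher and 606 lower genes by its unadjusted p under 0.05. By DESeq2, 94 genes were higher and 96 lower past the adjusted threshold, with 3 of the lower genes in the pathway lists. Here and below, the calls in the pathway lists are counted without the 4 members. For these counts and medians the cause of each shift was not tested. Leaving out 1 library gave 498 to 860 higher and 393 to 671 lower genes at an unadjusted p under 0.05 (393 lower without WT replicate 12). In the pathway lists it gave 1 to 4 higher and 8 to 13 lower genes, with 8 lower without WT replicate 12 or ++Oxtr replicate 8, and 2 to 4 higher without WT replicates 11 or 12 or ++Oxtr replicates 7 or 8. Leaving out 1 library moved the median of shedding genes from -0.17 to -0.058 and that of nuclear receptor genes from -0.17 to 0.011. The latter was -0.11 by limma-voom, and the signalling median was -0.10 by limma on log2(FPKM + 0.1). Without the length term the ratio of Gas6 to its receptors was 1.57 in WT and 1.09 in ++Oxtr, and that of Gas6 to Pros1 3.64 and 2.65, since Gas6 is the shortest of these genes.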

Other observations

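Lists of further cell types differed in how many of their genes reached an unadjusted p under 0.05. Of 10 endothelial markers 8 had a negative log2 fold change. Their median was -0.09, and Pecam1 had a value of -0.17 (SE 0.10). Smooth muscle and pericyte markers had a median of 0.04 over 7 tested genes, with Myh11 at 0.04 (SE 0.22, and -0.16 to 0.16 with 1 library left out), and dendritic cell markers one of 0.01 over 6, with Flt3 at 0.22 (SE 0.59, and -0.23 to 0.87). All 5 B cell markers had a negative value, at a median of -0.27, and Cd79a was at -0.05 (SE 0.50, and -0.58 to 0.23). Of 8 tested T and natural killer cell markers 7 had a positive value, at a median of 0.43. Cd3e, of T cells, was at 0.27 (SE 0.89) and at -1.03 without ++Oxtr replicate 9. Neutrophil markers had a median of 0.88 over 7 tested genes, with S100a8 at 1.37 (SE 0.56), which was 0.74 without ++Oxtr replicate 9. Epithelial genes were higher on average, with medians of 2.37 for 9 tested multiciliated genes and 0.73 for 7 tested genes of reproductive tract epithelium, and the highest sums of both were in ++Oxtr replicate 8, at 111.9 and 82.3 CPM, against 7.55 to 30.9 and 9.23 to 28.4 CPM in the other 5 libraries. By edgeR 0 genes of these lists passed an adjusted p of 0.05. At an unadjusted p under 0.05, 3 neutrophil genes were higher and 1 lower (57.1% of those tested), 1 endothelial gene was lower (10%) and 1 multiciliated gene higher (11.1%), where 8.91% of all genes reached that level. In the other lists of this paragraph 0 genes did. DESeq2 called S100a9, named after its values were seen, higher at its adjusted threshold, as it did 0.693% of all genes.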
